A study of Homo sapiens with 20 samples.

Results

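The comparison described here set Rh30 cells treated with QC6352 against Rh30 cells treated with its vehicle DMSO, and its members were the 6 arrays whose titles name these groups, of 20 arrays in the series. Rh30 is an alveolar rhabdomyosarcoma line, a tumour of cells committed to skeletal muscle that carries the PAX3-FOXO1 fusion gene. QC6352 is a small-molecule inhibitor of the KDM4 histone demethylases and was given at 200 nM for 48 h (3 arrays), and the control cells received DMSO (3 arrays). The titles of neither group name a transgene, a hairpin or a small interfering RNA. The series also holds Rh41, a second line with the fusion, under DMSO or 200 nM QC6352 for 48 h (3 arrays each), and Rh30 with a control or KDM4B hairpin or with a control or KDM4C small interfering RNA for 72 h (2 arrays each). Total RNA was measured on Clariom S arrays as log2 signals, for 17687 named genes. The 6 arrays come from 1 line, and the labels call the arrays biological replicates without saying whether they were separate cultures. The p values therefore measure the spread between arrays of the same group, pooled over all 20 arrays of the series.

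The labels of these 6 arrays contradict each other. Titles, source names and treatments give 1 grouping, which is followed throughout, whereas the first line of each description gives another. By that line the arrays titled DMSO would be QC6352 replicates 2 and 3 and a control siRNA sample, and the arrays titled QC6352 would be a control siRNA sample and both KDM4C siRNA samples. Each direction given below therefore rests on the titles. Grouped by the first lines instead, 89 genes passed the threshold in place of 6427. The 3 arrays titled DMSO correlated with each other over all genes at 0.993 or more, the 3 titled QC6352 at 0.99 or more, and arrays of different titles at 0.959 to 0.964. Array medians lay between 6.95 and 6.99 log2 in all 6, on values whose normalization is not known, and background probe sets had medians of 3.84 to 4.01. The 2197 positive-control probe sets had medians of 10.22 to 10.32 in the DMSO arrays and 9.87 to 9.97 in the QC6352 arrays, and their part in the results was not tested.

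KDM4 enzymes remove methyl groups from lysines 9 and 36 of histone H3. Methylation at lysine 9 marks silent chromatin, and methylation at lysine 36 is laid down behind elongating RNA polymerase II. The fusion protein PAX3-FOXO1 drives a muscle-like program in alveolar rhabdomyosarcoma, in which the myogenic factors MYOD1 and MYOG are made without completed differentiation. The study asked what inhibition of KDM4 does to expression in such cells.

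The DNA upstream of members of 3 gene groups that moved is printed first, to be set beside their values. The first is the pair H2AC8 and H2BC8, replication-dependent histone genes that stood among the 25 largest falls of the whole comparison. They lie head to head on chromosome 6, and the 232 bases between their RefSeq start sites (GRCh38.p14, chr6:26216689-26216920, plus strand) are upstream of both. Capitals mark CCAAT and TATAAA on either strand. The others are IFIT3 (chr10:89327747-89327996, plus strand) and IFIT1 (chr10:89392373-89392622, plus strand), interferon-induced RNA-binding proteins that rose, and MCOLN1 (chr19:7522374-7522623, plus strand), a lysosomal calcium channel that rose. In IFIT3 and IFIT1 capitals mark GAAANNGAAA on either strand, and each match printed is its reverse complement. In MCOLN1 capitals mark GTCACGTG on either strand. For IFIT3, IFIT1 and MCOLN1 the stretch is the 250 bases before the start site, from RefSeq, GRCh38.p14, read 5′ to 3′ on the strand of the gene. IFIT3, IFIT1 and MCOLN1 were picked among genes that rose and hold the motif, so its presence in them was fixed by the choice. PLIN2, a lysosome and autophagy gene with 1 match that rose by more than MCOLN1, is not printed.
H2BC8 to H2AC8: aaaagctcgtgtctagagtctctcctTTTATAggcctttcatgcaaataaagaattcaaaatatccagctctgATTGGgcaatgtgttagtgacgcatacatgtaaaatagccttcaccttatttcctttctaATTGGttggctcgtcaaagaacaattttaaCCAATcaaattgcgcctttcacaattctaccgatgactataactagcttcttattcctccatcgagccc
IFIT3: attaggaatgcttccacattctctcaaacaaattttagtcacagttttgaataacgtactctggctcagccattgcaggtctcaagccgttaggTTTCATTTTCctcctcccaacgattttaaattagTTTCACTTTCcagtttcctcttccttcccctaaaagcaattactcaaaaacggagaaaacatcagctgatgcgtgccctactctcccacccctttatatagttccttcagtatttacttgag
IFIT1: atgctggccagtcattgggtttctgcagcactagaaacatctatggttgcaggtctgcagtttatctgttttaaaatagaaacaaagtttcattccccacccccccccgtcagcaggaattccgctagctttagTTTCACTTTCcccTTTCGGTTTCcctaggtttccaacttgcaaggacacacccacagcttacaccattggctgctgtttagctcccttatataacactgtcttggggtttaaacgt
MCOLN1: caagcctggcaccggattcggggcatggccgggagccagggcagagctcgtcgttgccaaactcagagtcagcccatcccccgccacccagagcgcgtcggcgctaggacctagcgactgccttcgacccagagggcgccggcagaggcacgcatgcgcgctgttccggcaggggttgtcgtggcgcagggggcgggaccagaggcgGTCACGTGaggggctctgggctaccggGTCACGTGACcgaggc

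RefSeq promoters matched 14250 of the 17687 genes tested, and both strands of the 250 bases were searched. CCAAT was present upstream of 48 of the 58 matched replication-dependent histone genes (82.8%), against 40.5% of all matched genes. TATAAA was present in 40 of these 58 (69%) against 11.7%. These histone promoters carried the motifs whether or not the gene passed the test: of 47 that fell, 39 held CCAAT and 33 TATAAA, and of 11 that did not pass, 9 and 7. GAAANNGAAA, the core of the interferon-stimulated response element, was upstream of 3.56% of all genes and of 28 of 45 matched interferon-stimulated genes. It was found in 15 of the 23 that rose and in 12 of the 19 that did not pass. Among matched genes of MHC class I presentation it was held by 8 of the 16 that rose and by none of the 7 that did not pass. GTCACGTG, the core of the CLEAR element of lysosomal genes, was upstream of 3.82% of all genes and of 9 of 37 matched lysosome and autophagy genes. It was found in 8 of the 27 that rose, in 1 of the 2 that fell and in none of the 8 that did not pass. It contains CACGTG, the general E-box. A match describes letters in this window and is no evidence of binding.

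QC6352 changed a large share of the measured genes. With limma across all arrays and Benjamini-Hochberg adjustment over 17687 genes, 6427 passed an adjusted p of 0.05 (36.3%), of which 3517 were higher (19.9%) and 2910 lower (16.5%) than in DMSO. These genes are called higher or lower below, and rose or fell is used of them alone. Counts for gene lists are to be read beside these shares. Among the 8801 genes with a mean over all 20 arrays of at least 7 log2 the shares were larger, 28.6% higher and 26.8% lower. The median change over all genes was 0.05 log2. The falls were deeper than the rises: 749 genes fell and 534 rose by at least 2-fold, 161 and 56 by at least 4-fold, and 32 and 9 by at least 8-fold. The 3 arrays of one group did not overlap with the 3 of the other for 44.5% of all genes. A signal of 4.97 log2, the 90th percentile of the mean levels of 349 olfactory receptor genes, serves as a mark for dim genes, below which a fold is limited by background.

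**Figure D1:**
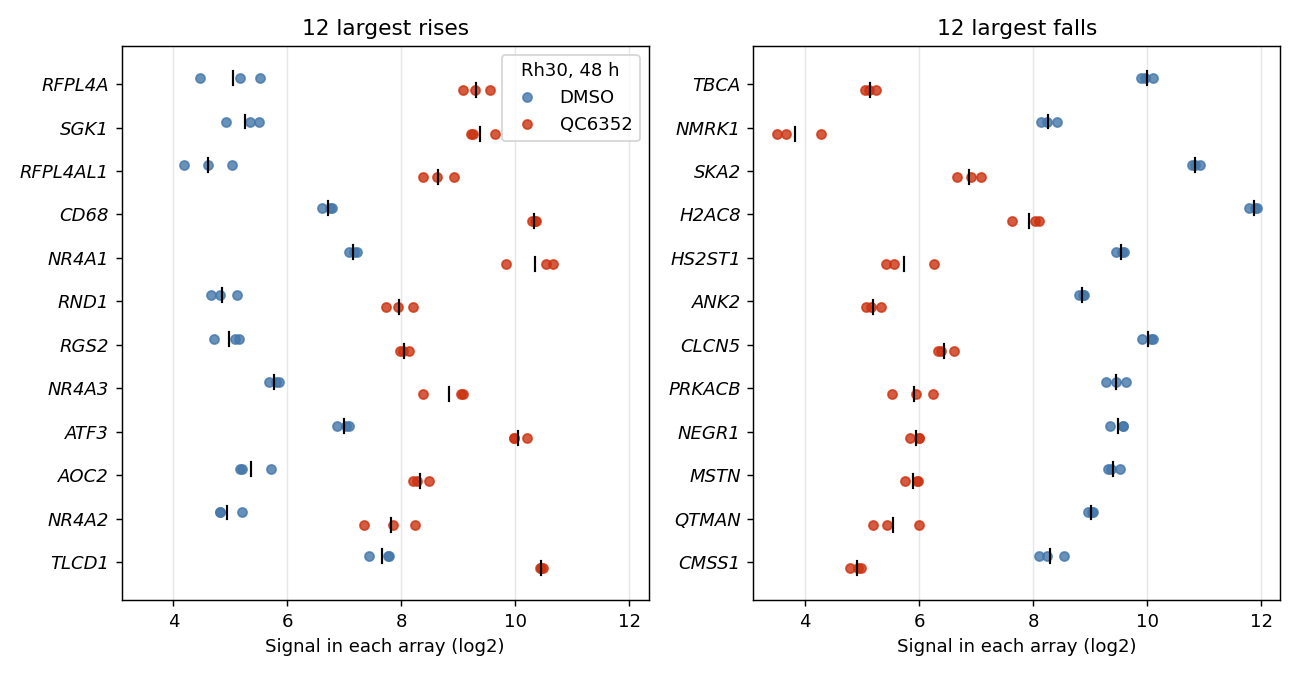
Signal of the 12 largest rises (left) and 12 largest falls (right) in each of the 6 Rh30 arrays (log2), with DMSO in blue, QC6352 in red and the group mean as a black bar. The groups do not overlap for any of the 24 genes, which the choice of these genes required.

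The genes of the KDM4 family changed little. KDM4A rose from 8.08, 8.23 and 8.11 log2 in the DMSO arrays to 8.58, 8.54 and 8.78 in the QC6352 arrays (0.49 ± 0.10 log2, standard error (SE); limma adjusted p = 8.65e-04). The dimmer KDM4D fell from 4.56, 5.18 and 4.90 to 4.17, 3.89 and 4.19 (-0.80 ± 0.23, adjusted p = 0.00923), and its level under the drug lay below the mark for dim genes. KDM4B (-0.19 ± 0.19, adjusted p = 0.488), KDM4C (0.11 ± 0.15, adjusted p = 0.622) and KDM4E (-0.03 ± 0.15, adjusted p = 0.916) did not pass. Without DMSO replicate 2 KDM4D no longer passed, and without DMSO replicate 1 KDM4C passed, at 0.35.

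Some other demethylases and enzymes that use the same cosubstrate, 2-oxoglutarate, moved further. Of 20 other histone lysine demethylases 6 rose and 6 fell, with a median of 0.12. That is 30% each way, against 28.6% higher and 26.8% lower among all genes with a mean of at least 7 log2. KDM5A, which acts on lysine 4 of H3, rose from between 8.31 and 8.42 to between 9.47 and 9.81 (1.29 ± 0.09), and KDM6B, which acts on lysine 27, rose by 0.65. KDM6A (-0.76), JMJD1C (-0.96) and RIOX2 (-1.09), a ribosomal histidine hydroxylase, fell. Of 36 further dioxygenases 16 rose (44.4%) and 8 fell (22.2%). FTO, an RNA demethylase, dropped from 11.13, 11.23 and 11.17 log2 to 9.28, 9.63 and 8.92 (-1.90 ± 0.14), and P3H2, a collagen prolyl hydroxylase, dropped by 2.16. The oxygen sensors EGLN3 and EGLN1 fell by 1.16 and 0.89. Among 32 targets of hypoxia-inducible factors 14 rose and 4 fell, including rises of ADM (1.37), VEGFA (1.04), the vascular growth factor, and SLC2A1 (0.82), the glucose transporter. EGLN3 and EGLN1 are themselves targets of these factors. Enzymes that write or read methylated lysine 9 and 36 changed less, with 4 of 20 higher (20%, against 19.9% of all genes) and 5 lower (25%, against 16.5%). The falls included TASOR (-1.0), MORC2 (-0.88) and CBX3 (-0.58) of heterochromatin silencing.

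The largest fall was that of TBCA, a chaperone that folds beta-tubulin. Its signal was 10.11, 9.97 and 9.90 log2 in DMSO and 5.04, 5.24 and 5.12 under QC6352, a drop of 4.86 ± 0.11 log2 or 29.0-fold (adjusted p = 1.24e-15). No other gene of tubulin folding moved as far, although 12 of 34 in that list fell (5 rose), with TBCK at -1.80 and the chaperonin subunit CCT4 at -1.03. NMRK1, a nicotinamide riboside kinase of NAD synthesis, went from 8.41, 8.25 and 8.14 to 4.28, 3.51 and 3.67, below the mark for dim genes (-4.44 ± 0.17). Of 21 NAD synthesis genes 5 fell, NUDT12 (-2.09) and NMNAT1 (-1.19), both below that mark under the drug, among them, and 4 rose, NADK by 1.08. These shares, 23.8% lower and 19% higher, compare with 16.5% and 19.9% of all genes, and the median of the list was 0.08. SKA2, which couples kinetochores to microtubules, had 10.84, 10.78 and 10.92 in DMSO and 6.66, 7.08 and 6.90 under the drug (-3.97 ± 0.11).

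Heparan sulfate synthesis held several of the deepest falls. HS2ST1, the 2-O-sulfotransferase of heparan sulfate, fell from 9.59, 9.45 and 9.56 to 5.55, 6.26 and 5.41 (-3.79 ± 0.17). EXT1, which elongates the chain, fell from between 8.16 and 8.24 to between 5.31 and 5.94 (-2.68 ± 0.13), and HS6ST2 (-2.63), NDST4 (-1.67, below the mark under the drug) and GLCE (-1.60) also fell. In this list 10 of 34 genes fell and 5 rose, so the falls were large rather than general. The rises included the core proteins SDC4 (1.60) and SDC1 (0.86) and the sulfotransferase HS6ST1 (1.15). Further leading falls were ANK2, an ankyrin (-3.68), CLCN5, an endosomal chloride transporter (-3.59), PRKACB, a catalytic subunit of protein kinase A (-3.55), NEGR1, a neural adhesion protein (-3.55), PBX3, a homeobox factor (-3.35), and ELMO1, a guanine nucleotide exchange partner of DOCK1 (-3.22). FAM72A and FAM72B, near-identical copies whose probe sets may share signal, fell (-3.21 and -3.22).

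The 3 largest rises were RFPL4A (4.26 ± 0.21), SGK1 and RFPL4AL1 (4.04 ± 0.19). RFPL4A and RFPL4AL1 are near-identical ubiquitin ligase-like genes whose signals cannot be fully told apart, and RFPL4AL1 had a DMSO mean of 4.60, below the mark for dim genes. RFPL4A had 4.47, 5.17 and 5.52 log2 in DMSO and 9.55, 9.09 and 9.30 under QC6352, so it passed from near the mark for dim genes to a level well above the array median. SGK1, a kinase induced by glucocorticoids and stress, rose from 5.35, 5.51 and 4.92 to 9.64, 9.22 and 9.26 (4.11 ± 0.21, or 17.3-fold). RND1, a GTPase that opposes actin stress fibres, rose from 4.66, 4.81 and 5.11 to 7.94, 7.74 and 8.20, and RGS2, which turns off G protein signalling, from 5.16, 5.08 and 4.71 to 8.03, 8.13 and 7.98. The DMSO mean of RND1 lay below the mark for dim genes, so its change is limited by background. TLCD1, a membrane lipid regulator, rose by 2.79 and SLC6A8, the creatine transporter, by 2.52. AOC2 and AOC3, adjacent amine oxidase genes, rose by 2.97 and 2.56, HBEGF, a ligand of the EGF receptor, by 2.70, and MYPN, a sarcomere protein, by 2.42.

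**Figure D2:**
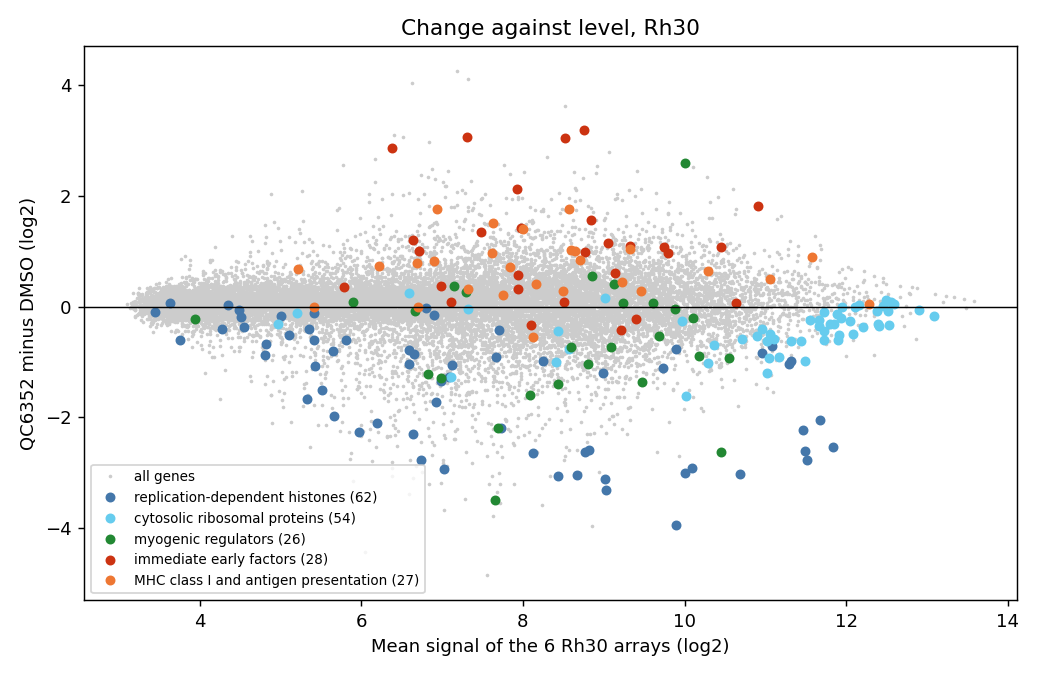
Change under QC6352 (log2) against the mean signal of the 6 Rh30 arrays (log2) for all genes in grey, with 5 gene lists in colour and the number measured in brackets. Replication-dependent histones lie below 0 across the range of levels, ribosomal proteins lie slightly below 0 at high signal, and immediate early factors lie mostly above 0.

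The span of a gene, from the start to the end of its RefSeq annotation on GRCh38.p14, went with its change. This was looked at after the first results were seen. Spans were found for 17683 genes, and the description is limited to the 8801 whose mean over all 20 arrays was at least 7 log2, with the values over all genes beside it. Of 1809 such genes under 10 kb, 32.2% were called higher and 19.1% lower, with a median change of 0.11 log2. In the bins up to 80 kb the shares lay between 29.2% and 33.9% higher and between 19.1% and 23.8% lower. Between 80 and 160 kb 20.8% were higher and 35.7% lower. Of 543 genes of 160 to 320 kb 12.7% were higher and 61.7% lower (median -0.51). Of 205 genes of 320 kb or more 7.32% were higher and 73.7% lower, with a median of -0.89. Over all genes, with no limit on level, the shares called lower were smaller and did not go on increasing: 9.16% of 4684 genes under 10 kb, 39.8% of 1068 genes of 160 to 320 kb (median -0.16) and 35.9% of 649 genes of 320 kb or more (median -0.09). The mean signal of those 649 genes was 6.02 to 6.05 log2 in the DMSO arrays.

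Among genes with a mean of at least 7 log2 the pattern stood in each array. The mean signal of the 205 longest genes was 8.53, 8.54 and 8.57 log2 in the DMSO arrays and 7.49, 7.63 and 7.53 in the QC6352 arrays. For the 1809 shortest it was 8.76, 8.78 and 8.78 in DMSO and 8.85, 8.87 and 8.85 under the drug. It was found among dimmer and brighter genes alike: of genes of 320 kb or more, 71.2% were called lower at mean levels of 7 to 9 and 80.8% at levels of 9 or more. Genes share arrays and are not replicates, and length was not separated from other properties of genes, so these shares carry no p value. In Rh41 the shares called lower under QC6352 were 20.1% for 160 to 320 kb and 36.1% for 320 kb or more, against 10% to 13.4% in the bins under 160 kb. The shares called higher in Rh41 did not mirror those of Rh30: they were 10.8% under 10 kb, 23.4% at 80 to 160 kb, 19% at 160 to 320 kb and 15.1% at 320 kb or more. Across the 8801 genes, which share arrays, the Spearman correlation of span and change was -0.217 in Rh30 and 0.0887 in Rh41. Of the 748 genes of 160 kb or more, the response of 411 was called higher in Rh41 than in Rh30 by the test of the difference and that of 20 lower. With the KDM4B hairpin in Rh30 the median changes lay between -0.02 and 0.03 in every bin.

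The long genes named here have some of the largest of these falls, whereas the median change of the 748 genes of 160 kb or more was -0.6 log2. ROBO1, an axon guidance receptor that spans 1171 kb, fell from 9.26, 9.10 and 9.26 to 6.01, 6.43 and 6.13 (-3.02 ± 0.12). EXOC4, a subunit of the exocyst that spans 848 kb, fell (-3.06), as did NEGR1, of 887 kb (-3.55). RAD51B, a recombination factor of 863 kb, fell (-2.27) to a level below the mark for dim genes. Of the 25 largest falls 12 span 160 kb or more and 8 less than 20 kb, 4 of which are histone genes. None of the 25 largest rises reaches 160 kb, and 17 span under 20 kb. Over all genes tested 9.71% span 160 kb or more and 43.1% under 20 kb. The share under 20 kb was 68% of the 25 largest rises and 32% of the 25 largest falls. Of the 748 genes of 160 kb or more at the level of 7, 486 were lower and 84 higher, and MSTN, among the leading falls, spans 7.03 kb.

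**Figure D3:**
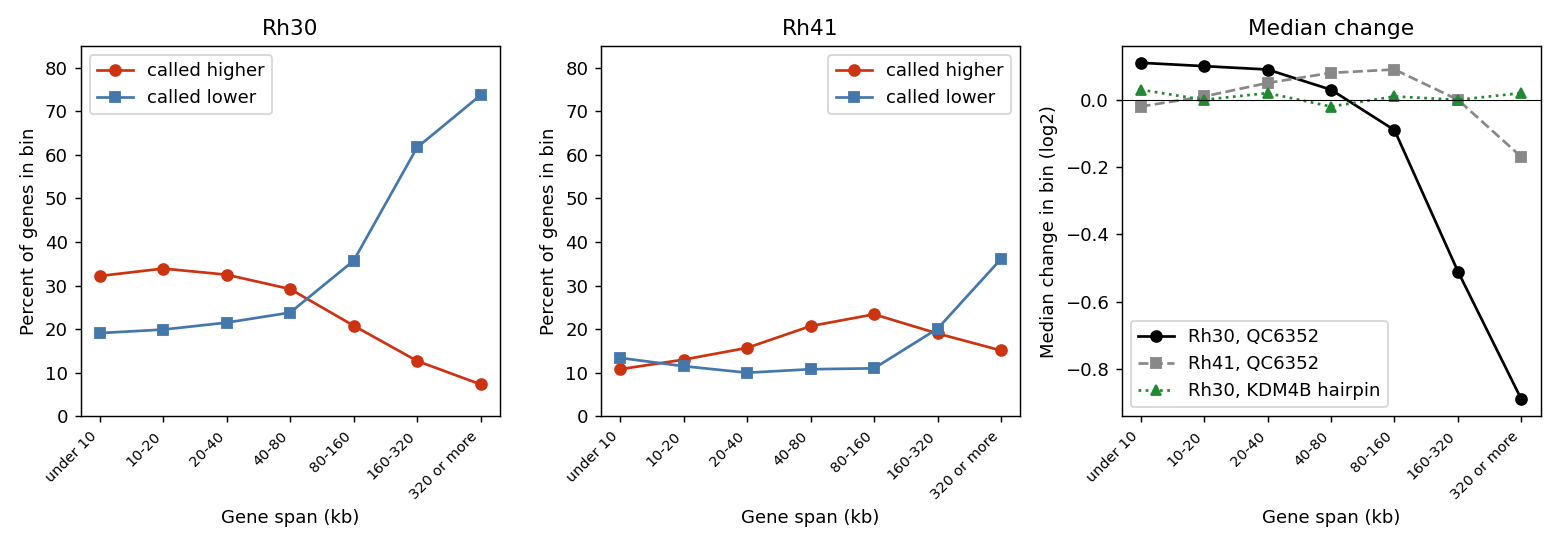
Genes with a mean level of at least 7 log2, binned by span (kb). The left and middle panels give the percent called higher (red) and lower (blue) in Rh30 and Rh41, and the right panel gives the median change (log2) with QC6352 in each line and with the KDM4B hairpin. In Rh30 the share called lower rises from 19.1% in the shortest bin to 73.7% in the longest.

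The factors that control pause release and elongation by RNA polymerase II were listed after the length pattern was seen, and the counts below support nothing by themselves. Of 35 such genes 18 rose and 6 fell, with a median of 0.26. HEXIM1, which holds the elongation kinase P-TEFb inactive, rose from 8.23, 8.41 and 8.14 to 10.40, 10.18 and 10.51 (2.10 ± 0.14, adjusted p = 6.59e-10). POLR2A, the largest subunit of the polymerase, rose from 10.35, 10.43 and 10.31 to 12, 11.82 and 12 (1.58 ± 0.11). Both parts of P-TEFb rose, the kinase CDK9 by 0.73 and the cyclins CCNT1 and CCNT2 by 1.24 and 0.81. MEPCE and LARP7 bind the same small nuclear RNA, but MEPCE rose by 1.16 and LARP7 fell by 0.93. Of the kinases that act along the gene body, CDK12 rose by 0.51 and CDK13 fell by 0.67. Of 33 genes of cleavage, polyadenylation and the Integrator complex, also listed afterwards, 12 fell and 6 rose. The largest fall there was CPSF3, the endonuclease that cuts pre-mRNA, from 8.92, 8.97 and 9.09 to 6.10, 6.42 and 6.87 (-2.53 ± 0.14).

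Replication-dependent histones, which package new DNA in S phase and whose mRNAs end in a stem loop cut by CPSF3, fell almost as a class: 51 of 62 were lower, none was higher, and the median change was -1.06. Replication-dependent histone mRNAs share near-identical coding sequence, so members may share signal. H2AC8, whose upstream DNA is printed above, went from 11.92, 11.89 and 11.79 to 7.62, 8.11 and 8.03 (-3.95 ± 0.12), and its divergent partner H2BC8 from 10.75, 10.79 and 10.52 to 7.26, 7.37 and 7.47 (-3.32 ± 0.11). H3C11 (-3.12), H2BC11 (-3.07) and H1-2 (-3.05) followed. The mean of the 62 genes lay between 8.12 and 8.20 in the DMSO arrays and between 6.65 and 6.81 in the QC6352 arrays. Replacement variants, made outside S phase from polyadenylated mRNAs, behaved otherwise, with 3 of 15 higher, 1 lower and a median of 0.03. MACROH2A1 (0.57), H3-3B (0.46) and H2AZ1 (0.40) rose and H2AZ2 fell by 0.44. Of 24 genes for transcription and processing of histone mRNA 9 fell and 4 rose, with CPSF3 far ahead of HINFP, an activator of histone H4 genes (-0.92), and NCBP1 of the cap-binding complex (-0.61). Histone chaperones went up more often than down, 13 and 6 of 26, among them UBN2 (1.16), TONSL (1.09), UBN1 (1.06) and ASF1B (0.94), whereas NPM1 (-1.01) and ATRX (-0.73) fell.

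Genes of S phase entry more often rose than fell. In the list for G1/S and replication 24 of 61 were higher (39.3%) and 9 lower (14.8%), with a median of 0.11. CCNE2, a cyclin of S phase entry, rose from 8.44, 8.41 and 8.60 to 9.85, 9.77 and 9.60 (1.26 ± 0.13), and CLSPN rose by 1.00. Parts of the replicative helicase fell, namely MCM2 (-0.78), MCM6 (-0.66) and MCM5 (-0.54), as did CDK6 (-1.05). Mitotic genes were split, with 16 of 60 higher (26.7%) and 17 lower (28.3%). These shares are near those of all genes with a mean of at least 7 log2, 28.6% and 26.8%. CDC25A, a phosphatase that activates cyclin-dependent kinases, rose by 1.41 and CENPE, a kinetochore motor, by 1.14, while SMC4 of condensin (-1.80), ASPM (-1.58) and HMMR (-1.23) fell. The proliferation marker MKI67 did not pass (0.04). CDKN1A, an inhibitor of cyclin-dependent kinases, rose from 9.73, 9.83 and 9.97 to 11.14, 11.03 and 11.04 (1.23 ± 0.13), and CDKN3, a phosphatase, fell by 2.21. In homologous recombination and the Fanconi pathway 9 of 31 rose and 9 fell, 29% each way and near the same 28.6% and 26.8%. The falls were the larger: RAD51B at -2.27, FANCC at -2.05, RAD50 at -1.56 and ATR at -1.53, against a largest rise of 1.04 for EXO1. RAD51B and ATR lay below the mark for dim genes under the drug.

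**Figure D4:**
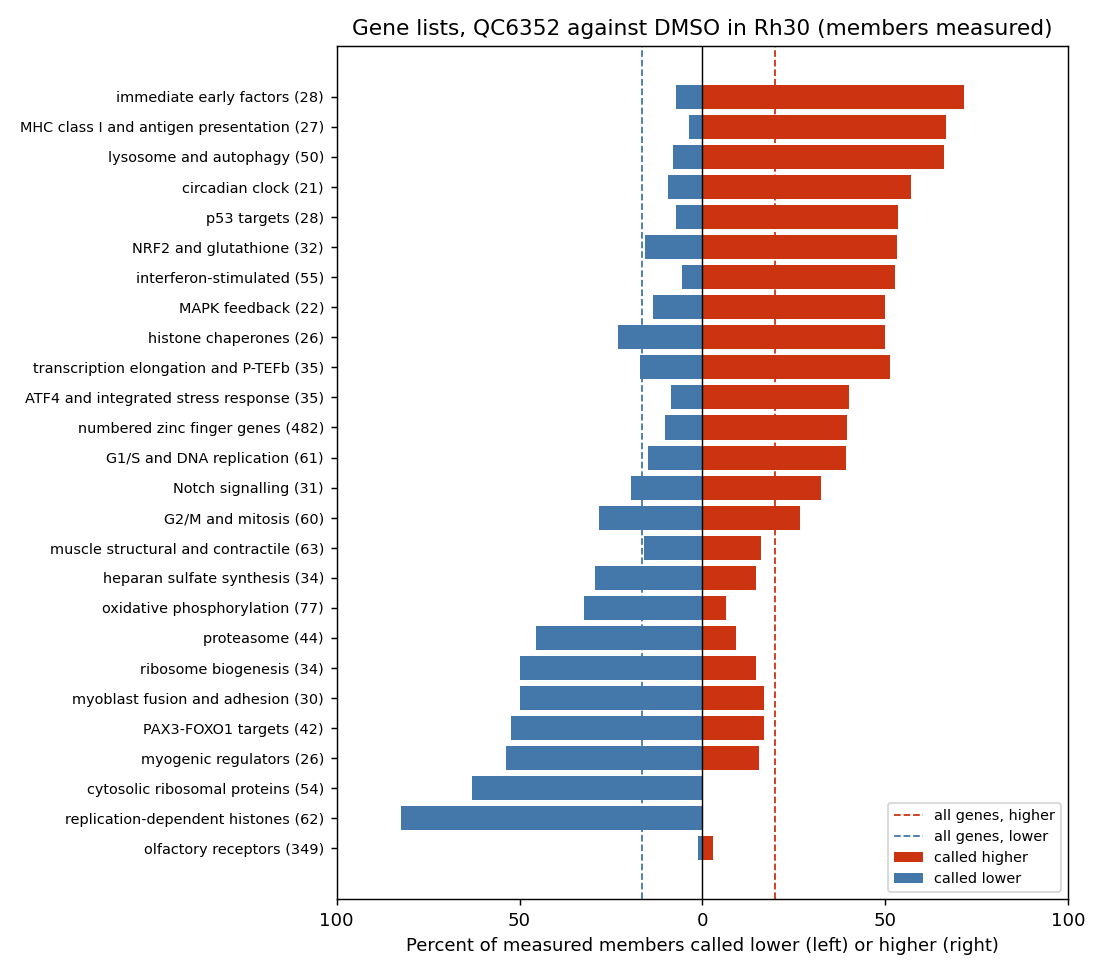
Percent of the measured members of each gene list called lower (blue, left) or higher (red, right), with the number measured in brackets and dashed lines at the shares over all genes, 16.5% and 19.9%. Immediate early factors have the largest share called higher and replication-dependent histones the largest share called lower among the lists drawn.

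The muscle regulators that define this tumour fell for the most part. MYOG, the factor of terminal myoblast differentiation, fell from 11.72, 11.76 and 11.82 to 9.06, 9.34 and 9.03 (-2.63 ± 0.10), and MYOD1, the factor that commits cells to muscle, from 10.15, 10.21 and 10.12 to 8.70, 8.95 and 8.73 (-1.37 ± 0.12). MSTN, which encodes the muscle growth inhibitor myostatin, went from 9.32, 9.36 and 9.53 to 5.75, 5.97 and 5.96 (-3.51 ± 0.12). MEF2C (-1.41), a partner of the myogenic factors, MYF5 (-1.29) and VGLL2 (-1.04) also fell. ID2, which blocks the DNA binding of the myogenic factors, rose from 8.59, 8.84 and 8.68 to 11.41, 11.22 and 11.30 (2.60 ± 0.13). In the list of 26 regulators 14 fell and 4 rose, with a median of -0.63. The probe set of PAX3, which measures the gene and may include its fusion transcript, rose by 0.55 ± 0.10. Of the defining muscle genes, CHRNA1 lay between 11.65 and 11.85, CHRND between 10.71 and 10.87 and DES between 11.39 and 11.91 in all 6 arrays. CHRNA1, CHRND and DES were thus bright under both treatments, and none of them passed the test. Other defining genes did pass: MYOG, MYOD1 and MYF5 fell and PAX3 rose, as given above, and CHRNG and FGFR4 fell, as given below.

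Genes of myoblast fusion and adhesion fell with them, 15 of 30, against 5 that rose. MYMK, the muscle membrane protein myomaker that drives fusion, fell from 8.67, 8.88 and 8.82 to 6.33, 6.44 and 7.01 (-2.2 ± 0.16). ELMO1 (-3.22) and DOCK1 (-2.22), which together activate RAC during fusion, fell, as did the adhesion proteins CDH2 (-1.67) and NCAM1 (-1.54). MYOF, a membrane repair protein, rose by 1.11. Of 63 structural and contractile genes 10 rose and 10 fell, 15.9% each way and near the shares over all genes, with a median of 0.07 and 17 members below the mark for dim genes in both groups. MYL1, a fast myosin light chain, rose from 7.65, 7.68 and 7.5 to 9.61, 9.79 and 9.74 (2.10 ± 0.13) and XIRP1 by 1.56, whereas KLHL41 fell by 1.71. Of 15 genes of the acetylcholine receptor and synapse 2 rose and 2 fell, 13.3% each way and below the shares over all genes. CHRNG, the embryonic subunit of the acetylcholine receptor (-1.10), and UTRN, the dystrophin relative at the synapse (-2.31), fell.

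Of 42 known PAX3-FOXO1 targets 22 fell and 7 rose, with a median of -0.37. MARCHF3, a ubiquitin ligase (-2.29), SOX8 (-1.60), KCNN3 (-1.56) and FGF8 (-1.54) fell, as did the kinase receptor FGFR4, a surface marker of the disease (-0.56 ± 0.09). MYCN fell from 9.60, 9.71 and 9.75 to 8.79, 9.17 and 9.03 (-0.69 ± 0.10) and MYC by 0.43. TIMP3 (1.57), the growth factor receptor IGF1R (0.93) and CXCR4 (0.77) went the other way. MYOG, MYOD1, SOX8 and ELMO1 stand in more than 1 of these lists, so the counts overlap.

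Immediate early genes, mostly transcription factors that growth signals and stress induce within minutes, had the largest share called higher of the 75 lists: 20 of 28 rose, 2 fell, and the median was 1.04. All 3 members of the NR4A family of orphan nuclear receptors rose. NR4A1 went from 7.08, 7.22 and 7.17 to 10.67, 9.83 and 10.54 (3.19 ± 0.15), NR4A3 from 5.67, 5.80 and 5.85 to 9.04, 8.38 and 9.08 (3.06 ± 0.16), and NR4A2 from 4.82, 4.81 and 5.2 to 7.86, 7.35 and 8.24 (2.87 ± 0.18). The DMSO mean of NR4A2 was below the mark for dim genes. In each of the 3 genes QC6352 replicate 2 was the lowest of its group and still lay above every DMSO array. ATF3 rose from 6.88, 7.03 and 7.09 to 9.98, 9.98 and 10.20 (3.05 ± 0.13), JUNB by 2.12, IER3 by 1.82 and CCN2 by 1.42. MYC and JUND, which belong to the same list, fell by 0.43 and 0.33, and JUND no longer passed without DMSO replicate 2, DMSO replicate 3 or QC6352 replicate 3.

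The inhibitors that growth factor signalling induces on itself rose in 11 of 22 cases and fell in 3. The phosphatases DUSP5 and DUSP1, which switch off MAP kinases, rose from between 7.68 and 7.79 to between 9.53 and 9.79 and from between 8.80 and 8.96 to between 10.70 and 10.80, by 1.93 and 1.89. SPRY2, a receptor tyrosine kinase inhibitor of the same class, fell from 9.66, 9.41 and 9.53 to 7.80, 7.92 and 7.86 (-1.67 ± 0.09), as did SPRY1 (-0.74). Of 30 genes of the NF-kB pathway 15 rose and 3 fell, with TRAF1 at 1.48, the chemokine CCL2 at 1.19 and TNFAIP8 at -1.29.

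Genes of the p53 response rose in 15 of 28 cases and fell in 2, with a median of 0.45. PMAIP1, which encodes the BH3-only death protein NOXA, went from 6.90, 6.74 and 6.75 to 9.17, 9.23 and 9.31 (2.44 ± 0.12). PPM1D, a phosphatase that limits p53, rose by 1.41, GDF15 by 1.41 and SESN2 by 1.37, and XPC, a DNA damage sensor, fell by 1.26. A second BH3-only gene, BCL2L11, which encodes BIM, rose from 8.58, 8.64 and 8.65 to 10.38, 10.14 and 10.42 (1.69 ± 0.09). The survival gene BCL2L1 rose too (0.66), and CFLAR, an inhibitor of caspase 8 activation, fell by 0.83.

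Interferon-stimulated genes rose in 29 of 55 cases and fell in 3, with a median of 0.31. IFIT2 went from 6.03, 5.91 and 5.57 to 7.91, 8.38 and 8.60 (2.46 ± 0.15) and IFIT3 from 6.07, 5.92 and 5.90 to 8.05, 8.29 and 8.08 (2.18 ± 0.14). IFIT1 rose from 4.51, 4.06 and 4.08, below the mark for dim genes, to 6.51, 6.30 and 6.13 (2.09 ± 0.18). IFI6 rose by 1.93, and SP100 and SAMD9 fell by 0.95 and 0.70. In the sensing pathway upstream, 8 of 26 rose and 1 fell, with CGAS at 0.68, STING1 at 0.53 and the feedback inhibitor SOCS1 at 1.02.

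In MHC class I presentation 18 of 27 genes were higher and 1 lower, with a median of 0.72. The trimming peptidase ERAP2 rose from 7.80, 7.65 and 7.60 to 9.62, 9.31 and 9.43 (1.77 ± 0.16) and its relative ERAP1 by 1.04. HLA-E, which natural killer cells read through an inhibitory receptor, rose by 1.41 ± 0.12. ULBP1 and ULBP2, ligands of the activating receptor NKG2D, rose by 1.76 ± 0.10 and 1.51 ± 0.12. ULBP1 had 6.05, 6.05 and 6.06 in DMSO and 7.85, 7.73 and 7.88 under the drug. TAPBPL, a peptide editor, fell by 0.56.

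Lysosome and autophagy genes rose in 33 of 50 cases and fell in 4, with a median of 0.48. CD68, a lysosomal membrane glycoprotein used as a macrophage marker, rose from 6.79, 6.75 and 6.60 to 10.36, 10.35 and 10.29 (3.62 ± 0.11, adjusted p = 4.98e-14). Of the 15 macrophage markers CSF1R also passed, at 0.50 ± 0.19, but not without any 1 of 5 of the 6 arrays (all but DMSO replicate 3). The other 13 did not pass, with CD14 at 0.07, CD163 at 0.18, MARCO at -0.15 and C1QA at 0.08. The mean of the list was 5.29 to 5.37 log2 in the DMSO arrays and 5.63 to 5.65 in the QC6352 arrays, with 6 members below the mark for dim genes in both groups. PLIN2, a lipid droplet coat protein degraded by autophagy, rose by 1.75, ATG16L1 by 1.35 and GPNMB by 1.24. MCOLN1 went from 9.12, 9.28 and 9.24 to 10.14, 10.20 and 10.26 (0.98 ± 0.10). UVRAG, a subunit of an autophagy lipid kinase complex, fell by 1.04.

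ATF4, the transcription factor of the integrated stress response, fell from 9.71, 9.78 and 9.64 to 8.12, 8.13 and 8.06 (-1.61 ± 0.09). Of the 35 genes in its list 14 rose and 3 fell. DDIT3, which encodes the stress factor CHOP, rose from 8.76, 8.64 and 8.95 to 10.35, 10.23 and 10.35 (1.53 ± 0.14), and STC2 rose by 1.14. SLC7A11, the cystine transporter, was lower (-0.66), but did not pass without DMSO replicate 2 or QC6352 replicate 1. SARS1 fell by 1.26, and 5 of 13 cytosolic tRNA synthetases were lower against 1 higher. In the unfolded protein response 10 of 30 rose and 3 fell, with ERO1B at 1.95, DNAJB9 at 1.28 and the sensor ERN1 at -1.35. NFE2L2, which encodes NRF2, fell by 1.00 ± 0.13 and KEAP1, its inhibitor, rose by 0.83 ± 0.11, while 17 of 32 genes of the NRF2 and glutathione list rose and 5 fell. EPHX1, an epoxide hydrolase, rose from 8.07, 8.23 and 8.24 to 10.79, 10.50 and 10.63 (2.46 ± 0.14) and FTL, the ferritin light chain, by 1.27, but ME1, the malic enzyme that makes NADPH, fell from 8.78, 8.93 and 9.0 to 6.36, 6.01 and 6.21 (-2.71 ± 0.12).

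Several lists of protein synthesis, turnover and respiration had more genes lower than higher. Of 54 cytosolic ribosomal protein genes 34 fell and none rose, with a median of -0.35. RPL10A went from 10.84, 10.78 and 10.87 to 9.24, 9.53 and 8.86 (-1.62 ± 0.12) and RPS14 fell by 1.03, whereas the means of the whole list were 11.14 to 11.19 in DMSO and 10.69 to 10.81 under the drug. Of 34 ribosome biogenesis genes 17 fell and 5 rose, DDX10 by the most (-2.2). Of 44 proteasome genes 20 fell and 4 rose. PSMB10, the subunit that interferon adds to the immunoproteasome, rose by 0.78 and is counted both here and with antigen presentation. Oxidative phosphorylation had 25 of its 77 genes lower and 5 higher, NDUFV3 (-1.82) and NDUFV2 (-1.78) of complex I by the most.

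In the Notch list 10 of 31 genes rose (32.3%, against 19.9% of all genes), 6 fell (19.4%, against 16.5%), and 15 did not pass. DLL4, a ligand, rose from 6.46, 6.65 and 6.84 to 8.85, 9.14 and 9.13 (2.39 ± 0.13), JAG1 by 1.41, and the target factors HES1 and HEY1 by 1.97 and 1.08. NUMB, an antagonist of the receptor (-1.47), the coactivator MAML2 (-1.45) and the DNA-binding factor RBPJ (-0.51) fell. In WNT signalling 7 of 53 rose and 9 fell, 13.2% and 17%, which is no more than near the shares over all genes (19.9% and 16.5%). AXIN2, a feedback target of beta-catenin, rose from 5.70, 6.02 and 5.56 to 7.84, 7.98 and 8.38 (2.31 ± 0.16), while the nuclear partners TCF7L1 (-1.51) and TCF7L2 (-1.27) fell. Guidance genes were divided with large changes each way: PLXNA3 rose by 2.26 and NRP2 by 2.05, and ROBO1 (-3.02), EFNA5 (-3.06) and SEMA6A (-2.29) fell. Clock genes rose in 12 of 21 cases and fell in 2, with PER2 at 1.26, CRY2 at 1.22 and CLOCK at -0.57, which did not pass without DMSO replicate 1 or QC6352 replicate 3. Of 482 numbered zinc finger genes 190 rose and 49 fell (median 0.21), from ZNF878 at 2.34 to ZNF644 at -2.03.

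Of 349 olfactory receptors 10 rose and 4 fell, and 311 had means below the mark for dim genes in both groups. OR4F15 was nonetheless among the 25 largest rises, from 4.39, 4.49 and 4.59 to 6.90, 7.30 and 6.98 (2.57 ± 0.14). Of 17 epithelial markers 5 rose, with CLDN4 at 1.91 and KRT8 at 0.46, and their mean was 5.64 to 5.69 in DMSO and 5.95 to 5.96 under QC6352. Of 18 blood markers 3 rose, of 15 endothelial markers 1 rose and 2 fell, of 14 fibroblast markers 2 rose, and of 15 neural markers 2 fell. The shares of blood, endothelial, fibroblast and neural markers did not exceed those over all genes, 19.9% higher and 16.5% lower. The part of any such cells in the results was not tested.

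In Rh41, measured on arrays of its own, QC6352 changed fewer genes, 10.9% higher and 8.8% lower, with 129 genes at least 2-fold higher and 256 at least 2-fold lower. Of the genes that rose in Rh30 1115 also rose in Rh41, which is 31.7% of the Rh30 rises and 58% of the Rh41 rises. Of those that fell 967 also fell, 33.2% and 62.1% of the 2 lists. Another 87 rose in Rh30 and fell in Rh41, and 103 did the reverse. The test of the difference between responses called 20% of all genes. Of the 1283 genes that changed by at least 2-fold in Rh30, 1226 changed less in Rh41, which their choice in Rh30 favours, and 1119 had the same sign.

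For all 24 leading genes the responses of the lines differed, with the smaller one in Rh41. The falls that remained deepest in Rh41 were those of NMRK1 (-3.48 ± 0.17 log2), TBCA (-2.92 ± 0.11), CLCN5 (-2.78 ± 0.09), H2AC8 (-2.10 ± 0.12) and PRKACB (-2.01 ± 0.15). SGK1 rose by 0.87 ± 0.21 there and CD68 by 1.31 ± 0.11. The NR4A genes did not pass in Rh41: NR4A1 changed by 0.35 ± 0.15 (adjusted p = 0.137), NR4A3 by 0.30 ± 0.16 (0.232 adjusted) and NR4A2 by -0.13 ± 0.18 (0.724 adjusted). HS2ST1 changed by -0.22 ± 0.17 (adjusted p = 0.433) and MSTN by -0.02 ± 0.12 (adjusted p = 0.942).

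**Figure D5:**
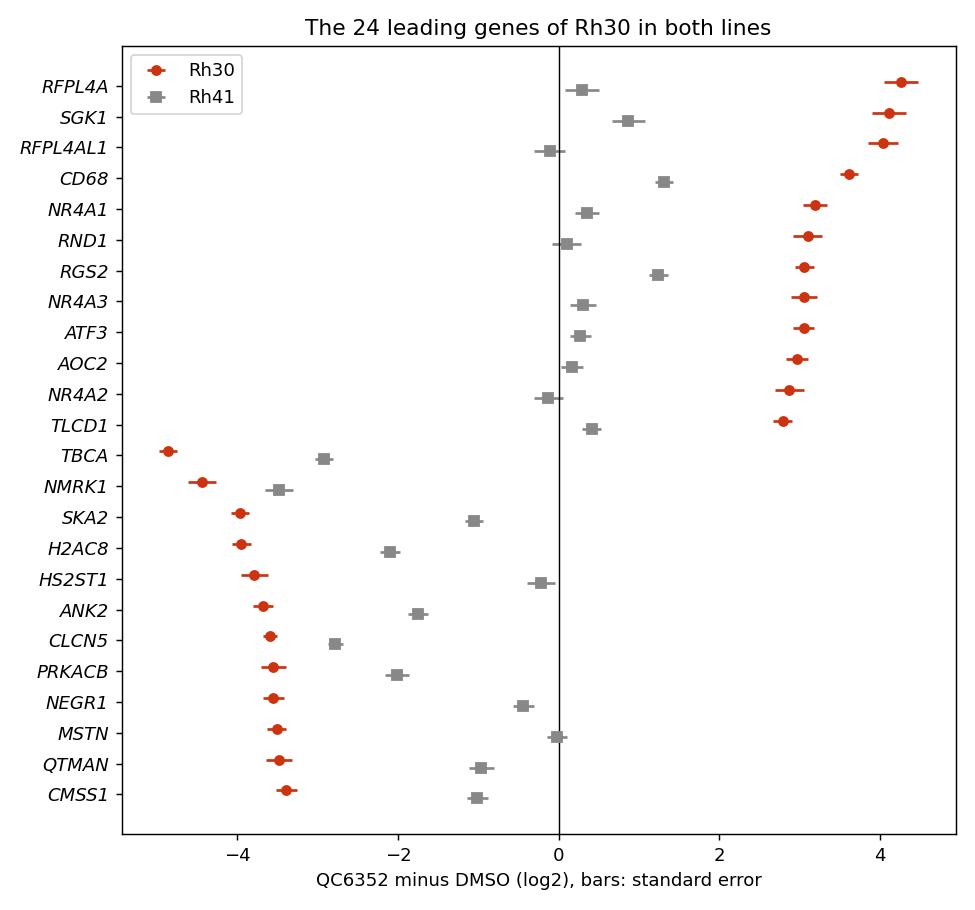
Change under QC6352 (log2) with its standard error for the 12 largest rises and 12 largest falls of Rh30, in Rh30 (red circles) and Rh41 (grey squares). TBCA, NMRK1, CLCN5, H2AC8 and PRKACB fall by more than 2 log2 in both lines, whereas MSTN and HS2ST1 lie near 0 in Rh41.

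The myogenic response was among those that differed. MYOG changed by 0.28 ± 0.10 in Rh41 (adjusted p = 0.053) and MYMK by 0.10 ± 0.16 (adjusted p = 0.775), and both differed from Rh30 by the test of the difference (adjusted p = 3.31e-10 and 1.25e-06). Of the 26 myogenic regulators 4 rose and 4 fell in Rh41, with a median of -0.01. In contrast 52 of the 62 replication-dependent histones fell there (median -0.84) and 29 of 55 interferon-stimulated genes rose (median 0.39). IFIT3 rose by 2.28 ± 0.14 in Rh41, and its difference from Rh30 did not pass (0.09, adjusted p = 0.815). Of the 35 genes of the integrated stress response none rose and 15 fell in Rh41, where DDIT3 fell by 0.60 ± 0.14, while ATF4 fell in both lines. ANKRD1, a target of YAP, fell by 0.72 ± 0.13 in Rh30 and rose by 3.06 ± 0.13 in Rh41.

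The KDM4B hairpin arrays, which share no sample with the 6 arrays, allow a few of these genes to be set beside loss of 1 family member at 72 h. KDM4B was lower by 0.94 ± 0.23 there. MYMK fell by 1.76 ± 0.20 with the hairpin (adjusted p = 1.10e-05) and changed by -2.2 under the drug, and SGK1 rose by 1.70 ± 0.26 and by 4.11. CLDN4 rose by 1.5 ± 0.17 and by 1.91. NMRK1, the second largest fall under the drug, fell with the hairpin (-1.21 ± 0.21, adjusted p = 6.98e-04), and RFPL4A, the largest rise, rose (1.28 ± 0.26, adjusted p = 0.00249). RFPL4AL1, near-identical to RFPL4A, did not pass (0.70 ± 0.24, adjusted p = 0.065). TBCA (-0.36 ± 0.14, adjusted p = 0.101), MSTN (-0.03 ± 0.14, adjusted p = 0.948) and MYOG (-0.29 ± 0.12, adjusted p = 0.146) did not pass with the hairpin. Most of the 24 leading genes did not pass with it. Those that did were SGK1, NMRK1, RFPL4A, RGS2, ATF3, AOC2 and ANK2, each in the direction of the drug. ATF4 moved in opposite directions, with 0.66 ± 0.11 for the hairpin and -1.61 for the drug. The times differ, and no test compared the perturbations.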

How the data were processed

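Total RNA was labelled from 125 ng and hybridised to Clariom S arrays, per the labels' protocols. The authors deposited log2 signals per probe set, from 2.22 to 14.22, and GCOS is named in the submitters' processing notes. For its version and for background correction, summarization and normalization, details were not given in the sources used here; values were left as deposited. Of 24351 probe sets 17709 carried 1 gene symbol, and the one with the highest mean stood for each gene, which gave 17687 genes. The test was limma 3.58.1 under R 4.3.3 (lmFit, then eBayes with no trend, on 20 arrays, with 8 group means by title and 12 residual degrees of freedom), with Benjamini-Hochberg adjustment over all genes and a threshold of 0.05. All adjusted p values come from that fit. The fit was checked on simulated data. The number of arrays limits the precision.

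The members, the 75 gene lists, the rule for named genes and the tests were chosen with earlier results of these data known. The rule named the KDM4 genes, the 25 largest rises and falls with groups that do not overlap, every member of lists of 15 or fewer, up to 5 rises and 5 falls of longer lists, and the defining muscle markers. Placeholder and noncoding symbols (with orf, or beginning SNOR, MIR, LINC or LOC) were not named. The 3 added lists (elongation, polymerase subunits, 3' ends), their members, the gene spans and the mark for dim genes were taken up after values were seen. The added polymerase list of 13 had 5 genes higher and 3 lower. Alternatives were other scalings, filters, weights, subsets of arrays, the other labels and leaving out each array.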

Additional observations from a re-analysis of the deposited data

Results flagged for a closer look

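The responses of Rh41 and Rh30 to QC6352 differed, by limma's test of the difference with Benjamini-Hochberg adjustment, for each of the 24 leading genes of Rh30. Values are the change in Rh41 minus the change in Rh30, on the log2 scale. Since these genes were chosen as the largest in Rh30, a smaller response elsewhere is favoured by the choice.

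Among the rises the difference was -3.97 for RFPL4A, -4.15 for RFPL4AL1, -3.24 for SGK1, -2.31 for CD68, -3.0 for RND1 and -1.82 for RGS2. For the nuclear receptors it was -2.84 for NR4A1, -2.76 for NR4A3 and -3.0 for NR4A2. It was -2.79 for ATF3, -2.8 for AOC2 and -2.38 for TLCD1. All 12 rises were thus smaller in Rh41.

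Among the falls the difference was 1.94 for TBCA, 0.96 for NMRK1, 2.92 for SKA2, 1.85 for H2AC8, 3.57 for HS2ST1 and 1.93 for ANK2. It was 0.8 for CLCN5, 1.54 for PRKACB, 3.11 for NEGR1, 3.49 for MSTN, 2.52 for QTMAN and 2.38 for CMSS1. The smallest difference belonged to CLCN5 and the largest to HS2ST1.

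A further 8 genes, chosen after their values were seen, also differed. The differences were 2.91 for MYOG, 2.3 for MYMK, 0.96 for ATF4, 3.78 for ANKRD1 and 2.61 for ME1. They were -0.95 for HEXIM1, -1.67 for ID2 and -2.13 for DDIT3.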

How the results depend on the processing

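Of the choices tried, the labels moved the results most. Grouped by the description's opening line in place of the title, 89 genes passed in Rh30 (limma, 3346 at an unadjusted p under 0.05), 1537 in Rh41 and 762 for the difference between lines, and 0% of genes of 160 kb or more were called lower. All 24 leading genes then lost their call, and 10 falls changed sign: TBCA to 0.04, SKA2 to 0.02, NMRK1 to 0.40, HS2ST1 to 0.29, ANK2 to 0.58, PRKACB to 0.27, NEGR1 to 0.15, MSTN to 0.40, QTMAN to 0.29 and CMSS1 to 0.17. A fold threshold of 2 left 1283 genes. Under the other settings the Rh30 count ranged from 5672 to 6787, from 5767 to 6119 without 1 array, and the share of long genes called lower from 61.0% to 67.2%. With the replicate block the fit of the 6 arrays called 5844 genes, against 5672 without it. Same-numbered arrays deviated together at r of 0.26, 0.061 and 0.082, so the numbers were not taken to pair them. KDM4E changed sign with array weights (0.02) and ranged from -0.1 to 0.07 without 1 array, KDM4B from -0.33 to 0.03 and KDM4C from -0.04 to 0.35. The cause of these changes was not tested. Below 4.97 log2 a signal is close to background, which limits the folds of dim genes.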

Other observations

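The control probe sets of the arrays, which carry no gene symbol, were left out of every comparison. Beside the Rh30 values of the 2197 positive controls, the Rh41 arrays had medians of 10.64 to 10.69 log2 under DMSO and 10.46 to 10.49 under QC6352. The 612 negative controls had medians of 3.45 to 3.54 and 3.47 to 3.69 on the Rh30 DMSO and QC6352 arrays.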
